A study of Mus musculus with 7 samples.

Results

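The 10 genes described here, Adipoq, Lep, Plin1, Plin4, Cidec, Retn, Cfd, Fabp4, Lpl and Pparg, are genes by which white fat cells are commonly recognised. They were chosen by name, and all 10 were found among the 56854 gene identifiers listed in every library. The libraries came from whole shoulder joints of mice taken 2 weeks after the supraspinatus tendon of the left shoulder had been repaired. They compared wild-type mice (n = 3) with Tnc-/- mice (n = 4), which lack Tenascin C, a glycoprotein of healing matrix, with 1 library for each of the 7 mice. Every joint had the repair, and no unoperated joint was analysed here. Age, sex and strain are not given in the sources used here.

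White adipocytes store energy as triglyceride in a single large lipid droplet and release hormones that report on that store. PPARG is the nuclear receptor that drives their differentiation and keeps their genes on, with C/EBP factors acting beside it. Fat is found around the joint capsule, within the bone marrow and, after rotator cuff injury, within the cuff muscles, where fatty infiltration is a known feature of poor repair. Several of the 10 genes are not used by white fat alone: brown adipocytes express most of them, endothelial cells and macrophages express Fabp4, and muscle and macrophages express Lpl. In bulk libraries fewer fat cells and less of a transcript per fat cell cannot be told apart.

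The libraries held 13.5 to 18.5 M gene counts in wild type and 19.2 to 28.2 M in Tnc-/-. Levels are given in CPM, the usual depth-scaled count, on library sizes adjusted by TMM, a method that aligns libraries on the bulk of their genes. Tnc itself averaged 352 ± 75.5 CPM over the 3 wild types (SD) and 41.8 ± 9.26 CPM over the 4 Tnc-/- libraries. Wild-type libraries 2 and 3 stood apart from the rest: genes for olfactory and vomeronasal receptors, which a joint should hardly express, summed to 1564 and 1112 CPM there, against 89.8 CPM in wild-type library 1 and 33.3 to 41.5 CPM in Tnc-/-. The gene files of the 2 genotypes also list different identifier sets, and how the reads were counted and the genotype cannot be told apart. Values are therefore also given with wild-type library 1 as the only wild type, a fit that assumes that this library varies as the Tnc-/- libraries do, and with the receptor signal as a background covariate. Markers of the other tissues in a joint were present in all libraries: the summed skeletal muscle markers lay at 23468 to 33272 CPM in wild type and 35344 to 52149 CPM in Tnc-/-, and the tendon fibroblast markers at 33266 to 52492 CPM and 35935 to 62123 CPM. Scx, a defining tendon marker, was listed at 0 in all 7 libraries. It shares this with 3613 of 21800 protein-coding identifiers, so a 0 is not read here as absence of expression.

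Tnc-/- joints held more of Plin4 and, near the threshold, of Adipoq than wild-type joints, and none of the 10 genes fell past the test. Plin4 was 2.80-fold and Adipoq 1.55-fold higher, whereas the fold changes of the other 8 genes missed the threshold of 0.05 on the adjusted p. The test was edgeR's quasi-likelihood test over 17791 genes with Benjamini-Hochberg adjustment. Over all genes tested, 29.0% passed it, 10.3% higher and 18.7% lower in Tnc-/-, so 2 of 10 in either direction is not above the background. The log2 fold change was above 0 in 8 of the 10, where 49.9% of all genes tested were above 0, and below 0 for Retn and Pparg. The median was 0.41 against -9.0e-04 over all genes tested. Of the 10, 9 span at most 30 kb from first to last annotated base. All tested genes had medians of 0.29 up to 10 kb, 0.15 at 10 to 30 kb and -0.69 at 100 to 300 kb. Among genes spanning at most 30 kb, fitted alone, the median of the 9 was 0.20. The median of the 10 was 0.14 with library totals, 0.28 without Tnc-/- library 3 and 0.68 without wild-type library 2. In Plin4 alone did every Tnc-/- library lie above every wild-type library, where 35.1% of all genes tested did not overlap, 17.7% higher and 17.4% lower. With wild-type library 1 alone, 9 of the 10 were above 0 (median 0.72) and none passed, where 4.45% of all genes did; with the background covariate 9 of the 10 were again above 0 (median 0.96) and none passed, against 2.24% of all genes. An unadjusted p under 0.05 was reached by 4 of the 10 in the former fit, where 24.6% of all genes reached it, and by 5 of the 10 in the latter, where 18.5% did (edgeR).

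**Figure D1:**
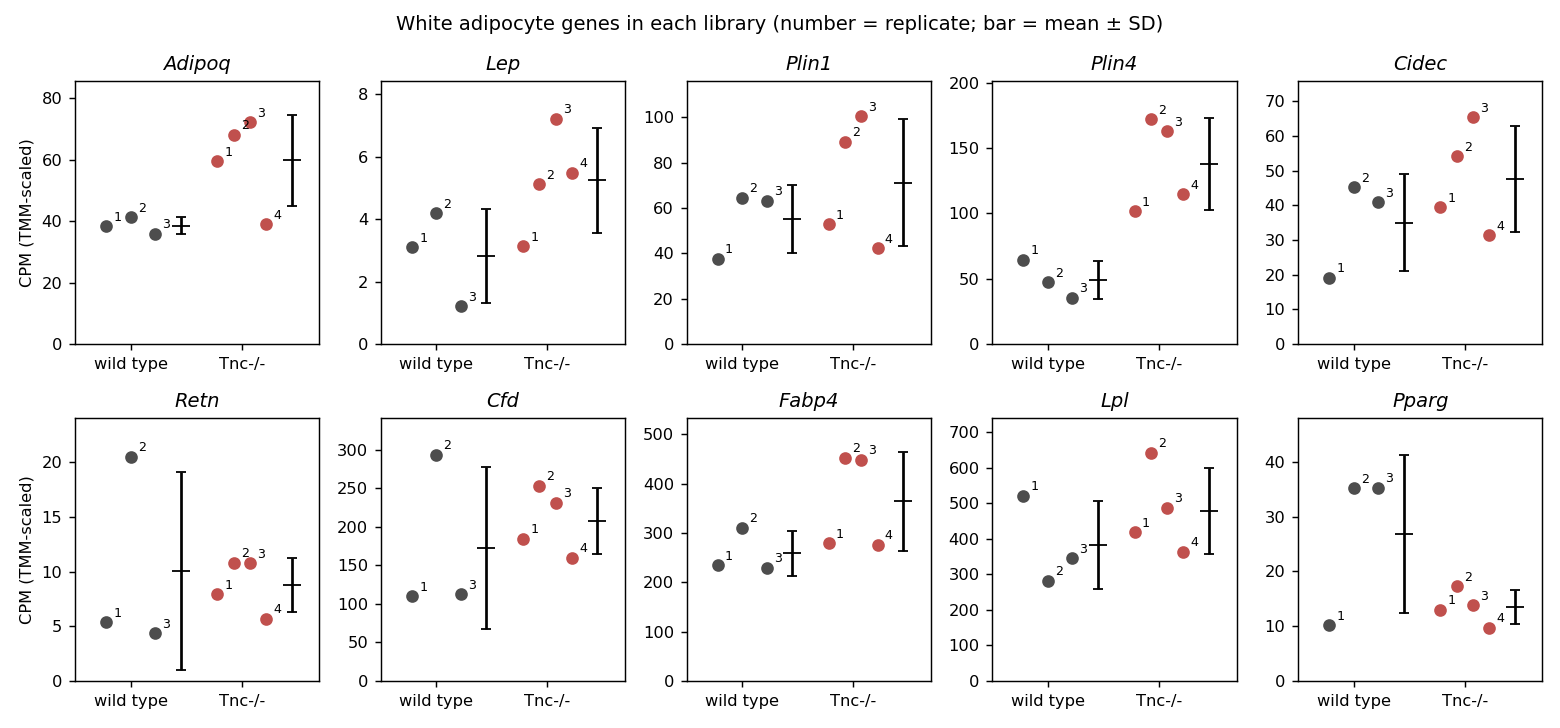
Level of each of the 10 genes in CPM (TMM-scaled; linear axes from 0) in the 3 wild-type (grey) and 4 Tnc-/- (red) libraries, numbered by replicate, with the mean and SD beside each group. Plin4 is the only gene whose groups do not overlap, from 35.6 to 64.5 CPM in wild type and from 102 to 172 CPM in Tnc-/-.

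Adipoq (ENSMUSG00000022878) encodes adiponectin, made almost only by adipocytes, and is the most specific fat marker of the set. It was at 38.4, 41.3 and 36.0 CPM in the wild types 1 to 3, in that order, and at 59.6, 68.2, 72.2 and 39.1 CPM in Tnc-/- libraries 1 to 4. The wild-type libraries were close together, with a coefficient of variation of 6.90%, and Tnc-/- library 4 lay within their range while the other 3 lay above it. It averaged 38.6 ± 2.66 CPM over the 3 wild types (SD) and 59.8 ± 14.7 CPM over the 4 Tnc-/- libraries, a log2 fold change of 0.63 (edgeR: SE 0.21, adjusted p = 0.0491). Of the 7 fits that left out a library, 2 kept the call, those without wild-type library 1 and without Tnc-/- library 4, and the adjusted p reached 0.156 without wild-type library 3. Scaling by library totals ended the call too, at 0.39 (edgeR, adjusted p = 0.202), where the median of all genes moved to -0.24. The size hardly moved with wild-type library 1 alone (0.63; edgeR, adjusted p = 0.195) or with the background covariate (0.70; edgeR, adjusted p = 0.318).

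Lep (ENSMUSG00000059201) encodes leptin, the satiety hormone that scales with the size of the fat store, and was the lowest of the 10. Its level was 3.11, 4.19 and 1.21 CPM in wild type, from 58, 63 and 20 counts, and 3.14, 5.13, 7.22 and 5.49 CPM in Tnc-/-, from 85, 92, 129 and 105 counts. The groups overlapped at Tnc-/- library 1, and the log2 fold change of 0.88 carried an SE of 0.54 (edgeR, adjusted p = 0.243). Lep stood at 0.74 with wild-type library 1 alone (edgeR, adjusted p = 0.331) and at 0.77 with the background covariate (edgeR, adjusted p = 0.662).

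Retn and Cfd behaved unlike the other hormones. Retn (ENSMUSG00000012705) encodes resistin, which in mice is released by white fat and named for insulin resistance. Cfd (ENSMUSG00000061780) encodes adipsin, the complement factor D protease, which adipocytes secrete in large amounts. Retn was at 5.37, 20.5 and 4.37 CPM in wild type and at 7.95, 10.8, 10.7 and 5.70 CPM in Tnc-/-. Cfd was at 110.2, 293 and 113 CPM in wild type and at 184, 253, 231 and 160.0 CPM in Tnc-/-. Both were thus highest in wild-type library 2, which lay above every Tnc-/- library, and lowest in wild-type libraries 1 and 3, which lay below every Tnc-/- library. The log2 fold changes were -0.20 for Retn (edgeR: SE 0.55, adjusted p = 0.814) and 0.27 for Cfd (edgeR: SE 0.35, adjusted p = 0.599). Without wild-type library 2 they became 0.86 (edgeR, adjusted p = 0.151) and 0.90 (edgeR, adjusted p = 0.0324), so that the sign of Retn turned and Cfd passed once this library was left out. Cfd stood at 0.91 (edgeR, adjusted p = 0.0601) and Retn at 0.71 (edgeR, adjusted p = 0.269) with wild-type library 1 alone. With the background covariate Cfd stood at 1.31 (edgeR, adjusted p = 0.175) and Retn at 1.28 (edgeR, adjusted p = 0.416). Other alternatives lowered Cfd, to 0.0016 with library totals, 0.043 without wild-type library 3 and 0.15 without Tnc-/- library 2.

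The ratio of counts within a library does not depend on how libraries are scaled, and the same library stood out. Cfd had 7.10 times the counts of Adipoq in wild-type library 2 but 2.87 and 3.12 times in the other wild types and 3.09 to 4.09 times in Tnc-/-. Retn had 0.497 of the counts of Adipoq there, against 0.140 and 0.121 in the other wild types and 0.133 to 0.158 in Tnc-/-. Lep ran from 0.0337 to 0.101 of Adipoq in wild type and from 0.0527 to 0.140 in Tnc-/-, without a library that stood apart in this way. Apart from wild-type library 2, Retn kept nearly the same proportion to Adipoq in both genotypes.

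**Figure D2:**
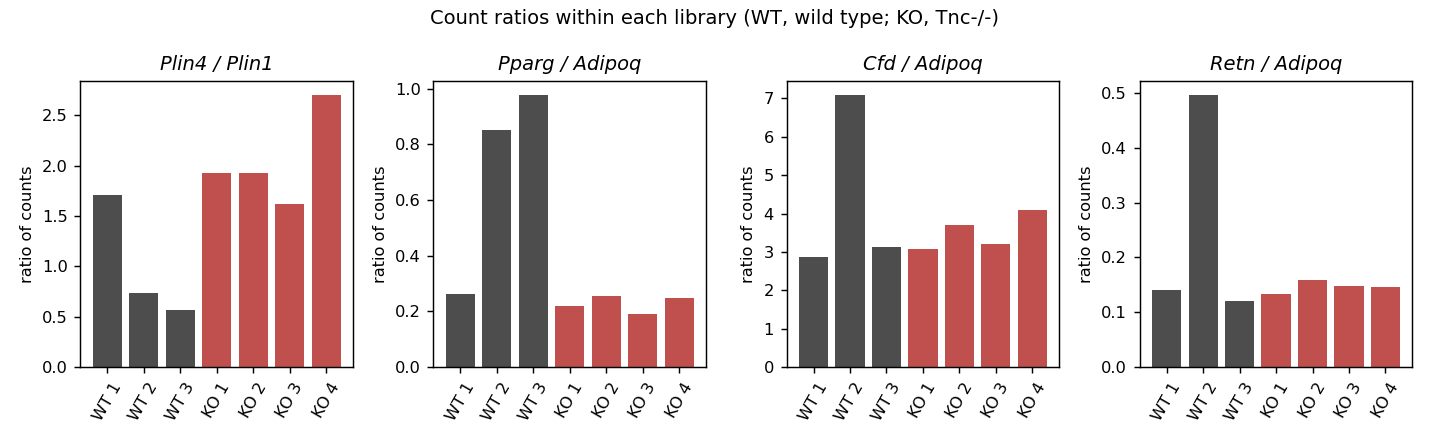
Counts of Plin4 over Plin1 and of Pparg, Cfd and Retn over Adipoq in each library (bars from 0; WT, wild type, grey; KO, Tnc-/-, red). Wild-type library 2 is highest for Cfd and Retn, at 7.10 and 0.497, and wild-type libraries 2 and 3 are highest for Pparg, at 0.850 and 0.978, and lowest for Plin4.

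Of the genes that coat and enlarge the lipid droplet, Plin4 differed most. Plin4 (ENSMUSG00000002831) encodes perilipin 4, a coat protein of newly forming droplets that is found in fat and also in skeletal and heart muscle. It had 1201, 713 and 586 counts in wild type and 2748, 3089, 2912 and 2192 counts in Tnc-/-. The levels were 64.5, 47.4 and 35.6 CPM in wild type and 102, 172, 163 and 115 CPM in Tnc-/-, so the highest wild type lay well below the lowest Tnc-/- library. It averaged 49.1 ± 14.5 CPM over the 3 wild types (SD) and 138 ± 34.9 CPM over the 4 Tnc-/- libraries, a log2 fold change of 1.49 (edgeR: SE 0.26, adjusted p = 0.00763). The call held in the 7 fits that left out a library, with log2 fold changes from 1.30 to 1.83, and under every scaling tried. It was lost with wild-type library 1 alone, at 1.09 (edgeR, adjusted p = 0.0562), and with the background covariate, at 0.95 (edgeR, adjusted p = 0.200). Of the 12 skeletal muscle markers, 12 had a log2 fold change above 0 (median 0.70). Of the 12, 3 passed the test, all higher in Tnc-/-, where 10.3% of all genes tested passed higher and 29.0% in either direction. The sum of the 12 did not overlap between the genotypes (23468 to 33272 CPM and 35344 to 52149 CPM). With wild-type library 1 alone 9 of the 12 were above 0 (median 0.38) and 0 passed, and with the covariate 8 were above 0 and 0 passed (edgeR). The part of muscle in the difference in Plin4 was not tested.

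Plin1 and Cidec, the droplet genes most tied to fat cells, gave a different pattern. Plin1 (ENSMUSG00000030546) encodes perilipin 1, the coat protein that gates access of lipases to the adipocyte droplet. Cidec (ENSMUSG00000030278) encodes the protein that lets droplets fuse into a single large one. Plin1 was at 37.6, 64.5 and 63.1 CPM in wild type and at 52.8, 89.2, 100.3 and 42.4 CPM in Tnc-/-. Cidec was at 19.1, 45.1 and 40.8 CPM in wild type and at 39.5, 54.1, 65.3 and 31.3 CPM in Tnc-/-. In both, wild-type library 1 was the lowest of the 7, Tnc-/- libraries 2 and 3 were the highest, and the groups overlapped. The log2 fold changes were 0.37 for Plin1 (edgeR: SE 0.32, adjusted p = 0.421) and 0.44 for Cidec (edgeR: SE 0.34, adjusted p = 0.350). Against wild-type library 1 alone they were 0.91 and 1.31, and with the background covariate 1.18 (edgeR, adjusted p = 0.224) and 1.704 (edgeR, adjusted p = 0.0618). Other alternatives lowered the 2 values, to 0.10 and 0.17 with library totals and to 0.16 and 0.25 without Tnc-/- library 3. The counts of Plin4 were 1.71, 0.734 and 0.564 times those of Plin1 in the wild types, in order, and 1.63 to 2.71 times in Tnc-/-, so that wild-type library 1 lay within the Tnc-/- range for this ratio and the other wild types lay below it.

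Fatty acid handling is represented by Fabp4 and Lpl, the most abundant transcripts of the set with Cfd. Fabp4 (ENSMUSG00000062515) encodes the fatty acid carrier of the adipocyte cytoplasm. Lpl (ENSMUSG00000015568) encodes lipoprotein lipase, which frees fatty acids from circulating triglyceride for uptake by fat and muscle. Fabp4 was at 235, 310.4 and 229.7 CPM in wild type and at 279, 452, 449 and 276 CPM in Tnc-/-, with only wild-type library 2 within the Tnc-/- range. Its log2 fold change was 0.49 (edgeR: SE 0.24, adjusted p = 0.145) and stayed between 0.24 and 0.75 over the alternatives, with 0.63 for wild-type library 1 alone (edgeR, adjusted p = 0.229) and 0.75 for the background covariate (edgeR, adjusted p = 0.336). Lpl was at 522, 282 and 346 CPM in wild type and at 418, 642, 488 and 364 CPM in Tnc-/-. Lpl was the only gene of the 10 that was highest among the wild types in library 1 apart from Plin4, and its log2 fold change was 0.32 (edgeR: SE 0.27, adjusted p = 0.394). Leaving out wild-type library 1 raised it to 0.70 (edgeR, adjusted p = 0.0122), in a fit where 14113 of all 21989 genes tested passed. Taking wild-type library 1 alone turned the log2 fold change of Lpl to -0.13, as did the background covariate, to -0.34 (edgeR, adjusted p = 0.639).

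Pparg (ENSMUSG00000000440), the nuclear receptor at the head of the programme, was higher in 2 of the 3 wild types than in any other library. It was at 10.1, 35.2 and 35.2 CPM in wild type, from 189, 529 and 580 counts, and at 13.0, 17.3, 13.8 and 9.68 CPM in Tnc-/-. Wild-type library 1 lay within the Tnc-/- range, so the groups overlapped. The log2 fold change was -0.996 (edgeR: SE 0.40, adjusted p = 0.0943). It was -1.30 without wild-type library 1 (edgeR, adjusted p = 1.6e-04), in a fit where 14113 of all 21989 genes tested passed. With wild-type library 1 alone it was 0.40, and with the background covariate 0.98 (edgeR, adjusted p = 0.184). Pparg had 0.264 of the counts of Adipoq in wild-type library 1, 0.850 and 0.978 in the other wild types, against 0.191 to 0.254 in Tnc-/-.

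Pparg also differs from the other 9 in its length on the chromosome. Its span, from first to last annotated base, is 129 kb in GENCODE release M21, while the others span 1.80 kb (Cfd) to 27.0 kb (Lpl). Across all genes tested, the level in wild-type libraries 2 and 3 relative to library 1 rose with span. The median log2 ratios were -0.31 and -0.37 for genes up to 10 kb, -0.22 and -0.18 at 10 to 30 kb, 1.05 and 0.80 at 100 to 300 kb, and 3.03 and 2.59 above 300 kb. Of the 10 genes, 7 stood above the median of their span class in both libraries, namely Adipoq, Plin1, Cidec, Retn, Cfd, Fabp4 and Pparg. Pparg stood at 1.79 and 1.80, and Cidec at 1.24 and 1.10. Plin4, at -0.44 and -0.86, and Lpl, at -0.89 and -0.59, stood below the median of theirs in both, and Lep stood above it in library 2 only. What part of the Pparg difference follows from span was not tested.

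**Figure D3:**
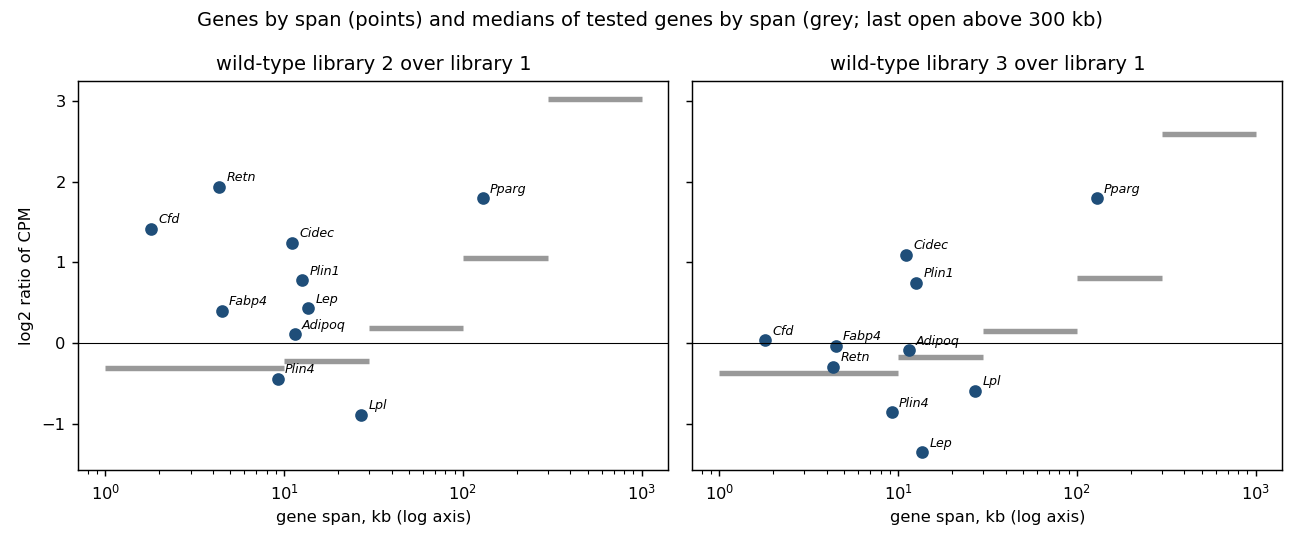
Log2 ratio of CPM in wild-type library 2 (left) and 3 (right) to wild-type library 1 against gene span in kb (log axis) for the 10 genes, with grey lines at the median of all tested genes in 5 span classes. Pparg, the only one of the 10 above 100 kb, lies at 1.79 and 1.80, and the 9 shorter genes lie on both sides of 0.

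Promoters of the set were read for the motifs of its known regulators. RefSeq promoters (build GRCm38.p6, which is not the build named in the submitters' processing notes) were found for 8 of the 10 genes, 11 start sites in all; Fabp4 and Lpl had no entry. The 250 bases before each start were searched on both strands. The C/EBP motif TTGCNNAA was present before at least 1 start of 4 genes, Lep, Plin1, Cidec and Pparg, in 4 of 11 promoters, and in 9.56% of all 32851 promoters. The single hexamer AGGTCA, to which nuclear receptors bind, was found in 2 promoters, both of Pparg (14.0% of all promoters), and TATAAA in 1, also of Pparg (12.4%). The full PPARG site, a pair of AGGNCA hexamers with 1 base between them, was in none of the 11 and in 0.338% of all promoters, and no match says only that these letters are not in this window. The 4 promoters with the C/EBP motif are shown 5′ to 3′ with the motif in capitals, followed by that of Plin4, the gene with the clearest rise, which held none of the 4 motifs. The Pparg promoter shown is that of the start site furthest into the gene.
Lep, chr6:29059971-29060220, plus strand: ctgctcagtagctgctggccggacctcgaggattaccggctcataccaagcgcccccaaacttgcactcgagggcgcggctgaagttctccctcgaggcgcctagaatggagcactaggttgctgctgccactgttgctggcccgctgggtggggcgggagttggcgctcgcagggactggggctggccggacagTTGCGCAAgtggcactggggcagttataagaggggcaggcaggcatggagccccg
Plin1, chr7:79732777-79733026, minus strand: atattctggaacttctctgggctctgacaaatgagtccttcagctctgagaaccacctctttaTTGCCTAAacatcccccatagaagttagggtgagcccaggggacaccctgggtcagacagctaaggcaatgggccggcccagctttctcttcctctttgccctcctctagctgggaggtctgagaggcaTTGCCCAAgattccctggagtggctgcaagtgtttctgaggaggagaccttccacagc
Cidec, chr6:113434765-113435014, minus strand: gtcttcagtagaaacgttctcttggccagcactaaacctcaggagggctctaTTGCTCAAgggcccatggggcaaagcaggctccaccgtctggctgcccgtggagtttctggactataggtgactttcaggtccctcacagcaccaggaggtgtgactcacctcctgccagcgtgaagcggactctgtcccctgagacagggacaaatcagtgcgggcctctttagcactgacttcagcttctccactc
Pparg, chr6:115421816-115422065, plus strand: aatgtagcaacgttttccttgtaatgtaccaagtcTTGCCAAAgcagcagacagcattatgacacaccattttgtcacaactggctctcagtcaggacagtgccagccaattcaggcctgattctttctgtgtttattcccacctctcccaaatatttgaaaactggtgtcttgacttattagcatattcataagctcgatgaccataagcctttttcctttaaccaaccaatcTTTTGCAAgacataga
Plin4, chr17:56109783-56110032, minus strand: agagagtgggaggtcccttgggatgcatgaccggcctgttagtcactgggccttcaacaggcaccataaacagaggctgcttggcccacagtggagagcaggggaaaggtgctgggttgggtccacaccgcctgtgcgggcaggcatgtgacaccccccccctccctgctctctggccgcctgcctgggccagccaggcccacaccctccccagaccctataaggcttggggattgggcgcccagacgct
In Lep the motif lies 55 to 48 bases before the start and matches on both strands, in Plin1 it occurs at 187 to 180 and at 58 to 51 bases before it, in Cidec at 198 to 191, and in Pparg at 215 to 208 and at 16 to 9. None of the 4 genes with this motif passed the genotype test.

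Levels of different genes can be compared once divided by exon length. In CPM per kb of exon (GENCODE M21, basic transcripts), the order in Tnc-/- was Fabp4 at 406 ± 111 (SD, n = 4), Cfd at 225 ± 46.2, Lpl at 116 ± 29.4, Adipoq at 46.3 ± 11.4, Cidec at 27.1 ± 8.63, Plin4 at 23.9 ± 6.04, Plin1 at 18.4 ± 7.21, Pparg at 5.66 ± 1.32, Retn at 5.57 ± 1.56 and Lep at 1.61 ± 0.513. Fabp4, Cfd and Lpl were each clear of the next in every library, while Adipoq, Cidec, Plin4 and Plin1 overlapped their neighbours in this order, as did Pparg and Retn. In wild type Fabp4 led at 288 ± 50.4 CPM per kb (SD, n = 3), followed by Cfd at 187 ± 114, Lpl at 93.1 ± 30.2 and Adipoq at 29.9 ± 2.06, with ranges that overlapped between Fabp4 and Cfd and between Cfd and Lpl. The same 3 genes, Fabp4, Cfd and Lpl, held 73.0 to 83.0% of the summed CPM of the set in the 7 libraries. Plin4 ranked eighth in wild type, at 8.51 ± 2.51 CPM per kb, below Plin1 at 14.2 ± 3.91, and sixth in Tnc-/-, above it, though the ranges of Plin4 and Plin1 overlapped in both genotypes.

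The libraries of a genotype also differed from each other. The summed level of the 10 genes was 1045, 1144 and 904 CPM in wild type and 1159, 1765, 1599.9 and 1048 CPM in Tnc-/-. This sum averaged 1031 ± 120.2 CPM over the 3 wild types (SD) and 1393 ± 344 CPM over the 4 Tnc-/- libraries, with ranges that overlapped. Tnc-/- libraries 2 and 3 were highest: of the 7 libraries, they held the highest level of 7 of the 10 genes. Tnc-/- library 4 was the lowest of its genotype for 8 of the 10, all but Lep and Plin4. Among the wild types library 2 was the highest for 7 of the 10. Averaged over the set on the log2 scale, Tnc-/- libraries 2 and 3 stood 0.49 above the mean of all libraries, wild-type library 2 stood 0.17 above it, and wild-type libraries 1 and 3 stood at -0.48 and -0.41.

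**Figure D4:**
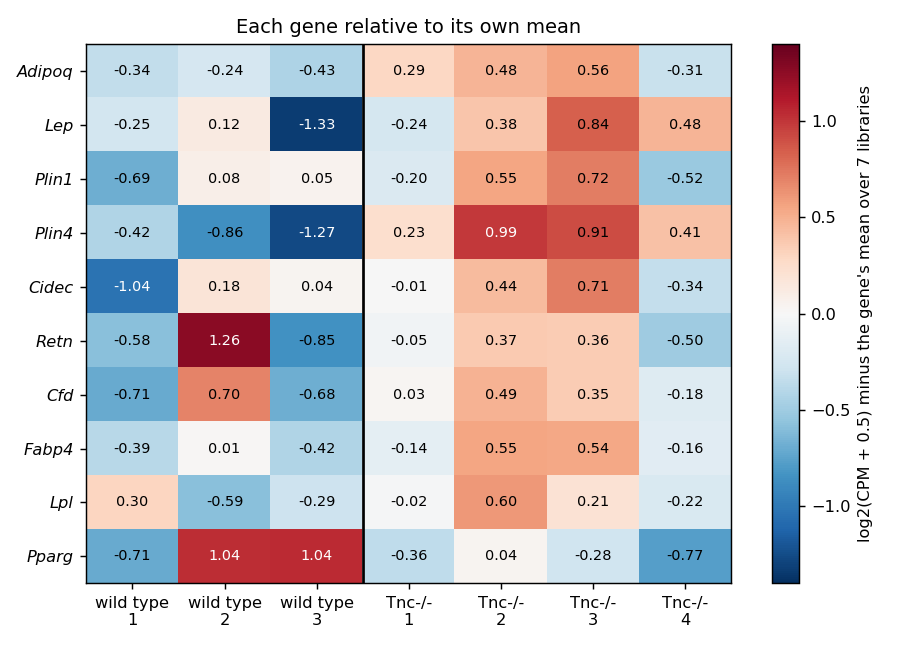
Log2(CPM + 0.5) of each of the 10 genes minus its own mean over the 7 libraries (colour and printed value; red above, blue below). Tnc-/- libraries 2 and 3 are above the mean in all genes but Pparg in library 3, and the wild-type libraries differ from gene to gene, as for Retn at 1.26 in library 2 and -0.85 in library 3.

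Of the brown fat genes, Ucp1, the uncoupling protein that defines brown adipocytes, was at 11.5, 37.0 and 33.0 CPM in wild type and at 27.6, 67.4, 72.9 and 9.15 CPM in Tnc-/-, highest in the libraries that were highest for Plin1 and Cidec and lowest in the libraries that were lowest for them within each genotype. Its log2 fold change was 0.70 (edgeR: SE 0.68, adjusted p = 0.465). Of the 11 listed brown fat genes, 9 were tested and 1 passed, where 29.0% of all genes tested passed and 18.7% passed lower. The list median was -0.23 with all libraries, 0.56 with wild-type library 1 alone and 0.75 with the background covariate. The gene that passed was Ppargc1a, a coactivator of mitochondrial genes, which fell by 1.01 on the log2 scale (edgeR: SE 0.30, adjusted p = 0.0355) and spans 113 kb. Ppargc1a was at -0.33 with wild-type library 1 alone (edgeR, adjusted p = 0.511) and at -0.060 with the background covariate (edgeR, adjusted p = 0.958), so the call ended in both. Dio2, which activates thyroid hormone in brown fat, differed from Ucp1 in its libraries, with 35.9, 15.9 and 26.9 CPM in wild type and 16.6 to 21.4 CPM in Tnc-/-. Dio2 passed with wild-type library 1 alone, lower in Tnc-/- (-0.95; edgeR, adjusted p = 0.0245). Prdm16, a regulator of brown fat identity, was at -0.90 with all libraries, without passing, and passed at 1.64 with the covariate (edgeR, adjusted p = 0.049). Ucp1 was thus detected in every library, and the part of brown fat in the levels above was not tested.

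Genes were also ranked by how closely their level followed the set. Among 12373 other tested genes averaging 5 CPM or more (predicted gene models left out), the 8 with the highest Pearson correlation of log2 CPM with the mean of the 10 genes over the 7 libraries were Dbi (0.974), Mrap (0.970), Slc25a1 (0.957), Klhdc7a (0.952), Thrsp (0.949), Agap1 (0.948), Lrig1 (0.945) and Gna12 (0.941). These values are a description of likeness over 7 libraries that share a genotype split and a scaling. Dbi encodes an acyl-CoA binding protein, Slc25a1 the mitochondrial citrate carrier that feeds fatty acid synthesis, and Thrsp a lipogenic protein of fat and liver. Thrsp, for example, was at 32.3, 75.3 and 44.2 CPM in wild type and at 67.1, 98.3, 106.6 and 36.1 CPM in Tnc-/-, low in wild-type library 1 and Tnc-/- library 4 and high in Tnc-/- libraries 2 and 3. None of the 8 passed the genotype test, with adjusted p (edgeR) from 0.126 to 0.475.

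The wider adipocyte programme was examined in 9 lists that hold 78 tested genes besides the 10. Of these 78, 13 passed the test (16.7%, against 29.0% of all genes tested). In Tnc-/- 11 were higher and 2 lower, where 10.3% and 18.7% of all genes tested passed in these directions. The median log2 fold change of the 78 was 0.31. Among adipocyte transcription factors, 3 of 11 rose and 1 fell. Cebpd, an early factor of fat cell differentiation, rose by 0.77 (edgeR: SE 0.18, adjusted p = 0.0147), and Rxra, the partner with which PPARG binds DNA, by 0.75 (edgeR: SE 0.14, adjusted p = 0.0081). Srebf1, a regulator of lipid synthesis, rose by 0.52 (edgeR: SE 0.14, adjusted p = 0.0269). Ebf2, a factor of brown and beige preadipocytes spanning 198 kb, fell by 1.95 (edgeR: SE 0.49, adjusted p = 0.0203), with 8.59, 42.1 and 29.1 CPM in the wild types against 4.18 to 9.53 CPM in Tnc-/-. With wild-type library 1 alone Cebpd stood at 0.58, Rxra at 0.67, Srebf1 at 0.26 and Ebf2 at -0.33, and none of these passed. With the background covariate none passed either, and Ebf2 turned to 0.38.

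Genes of lipid uptake, storage and release that passed were higher in Tnc-/-. Their counts stand against the 10.3% of all genes tested that passed higher and the 29.0% that passed in either direction. Angptl4, an inhibitor of lipoprotein lipase, rose by 0.79 (edgeR: SE 0.15, adjusted p = 0.00938) and Slc27a1, a fatty acid transporter of muscle and fat, by 0.54 (edgeR: SE 0.15, adjusted p = 0.027), 2 of 11 genes in their list. Of the 10 droplet genes, Plin2 and Plin3, coat proteins found in most cell types, rose with Plin4, by 0.51 (edgeR: SE 0.15, adjusted p = 0.0355) and 0.49 (edgeR: SE 0.15, adjusted p = 0.0427). In the lipolysis list 1 of 7 tested genes passed, Mgll, the monoglyceride lipase, at 0.62 (edgeR: SE 0.13, adjusted p = 0.0105), while Lipe and G0s2 were listed at 0 in all 7 libraries. In the synthesis list 1 of 12 passed, Dgat1, which adds the last fatty acid to triglyceride, at 0.91 (edgeR: SE 0.14, adjusted p = 0.0068). Dgat1 averaged 35.3 ± 3.55 CPM over the 3 wild types (SD) and 66.2 ± 8.04 CPM over the 4 Tnc-/- libraries, and it kept its call with wild-type library 1 alone (0.79; edgeR, adjusted p = 0.0417) and lost it with the background covariate (0.74; edgeR, adjusted p = 0.14). Angptl4, Slc27a1, Plin2, Plin3 and Mgll lost their calls in both fits. In the fit with wild-type library 1 alone and that with the covariate, in that order, Mgll stood at 0.56 and 0.57, Angptl4 at 0.64 and 0.55, Slc27a1 at 0.41 and 0.38, Plin3 at 0.31 and 0.26, and Plin2 at 0.22 and 0.075. With the covariate 3 of the 78 genes passed, Irs1, Pnpla3 and Prdm16, where 2.24% of all genes tested did. Of the 13, 1 kept its call in that fit. Pnpla3, a lipase and acyltransferase of the lipid droplet, was at -0.26 with all libraries, without passing, at 1.90 with wild-type library 1 alone (edgeR, adjusted p = 0.0363) and at 2.81 with the covariate (edgeR, adjusted p = 0.0487). Its level was 1.4, 11.6 and 6.01 CPM in the wild types and 4.18 to 6.55 CPM in Tnc-/-, so wild-type library 1 lay below the rest. Of the adipokine list, 12 genes were tested and Adipoq was the only one to pass.

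Irs1, the docking protein of the insulin receptor, had the largest rise among the genes of the 9 lists that passed. It was at 14.5, 19.3 and 19.8 CPM in wild type and at 57.5, 80.6, 67.5 and 68.1 CPM in Tnc-/-, a log2 fold change of 1.93 (edgeR: SE 0.18, adjusted p = 0.00171). The call held with wild-type library 1 alone (2.23; edgeR, adjusted p = 2.8e-04) and with the background covariate (2.36; edgeR, adjusted p = 0.00299). However, 30.9% of its exon length overlaps Gm9747, an identifier on the other strand that is listed in the wild-type files only, so the value is uncertain as a difference in expression. No other gene of the 9 lists, and none of the 10 described genes, overlaps an identifier of 1 genotype's files alone in GENCODE M21. The overlaps of the 10 were 17 bases of Plin4 exon shared with Hdgfl2 on the other strand and an antisense gene over Pparg that shares none of its exon bases and had 0 counts in all libraries. The other tested genes of the insulin list, 7 in number, did not pass, among them Slc2a4, the insulin-responsive glucose transporter, at 0.51 (edgeR: SE 0.17, adjusted p = 0.055).

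Progenitors and other cell types were followed through their markers, whose counts stand against the 29.0% of all genes that passed in either direction, the 10.3% that passed higher and the 18.7% that passed lower in Tnc-/-. Of 10 preadipocyte and mesenchymal progenitor genes, Pi16 alone passed, at 0.78 (edgeR: SE 0.22, adjusted p = 0.0286). Pi16 fell short of the threshold with wild-type library 1 alone (0.40; edgeR, adjusted p = 0.224) and with the background covariate (0.24; edgeR, adjusted p = 0.719). The list's sum was 814 to 1241 CPM in wild type and 1081 to 1267 CPM in Tnc-/-. The macrophage and endothelial markers, cell types that also express Fabp4, summed to 1751 to 3329 and 681 to 832 CPM in wild type and to 2721 to 3134 and 685 to 809 CPM in Tnc-/-, and overlapped between the genotypes. In the macrophage list 1 of 9 tested genes passed (median 0.31) and Itgam was listed at 0, and in the endothelial list 4 of 10 passed, 2 in each direction (median -0.011). With wild-type library 1 alone the macrophage median turned to -0.19 and 0 passed, and with the covariate it was -0.36 and 0 passed (edgeR). Of the endothelial genes 2 passed with that library alone and 0 with the covariate. The summed blood and marrow lists did not overlap between genotypes and were higher in Tnc-/-. Of single genes 17.7% lay so, and no such share was computed for sums of lists. Erythroid markers summed to 5034 to 9685 CPM in wild type and 13905 to 27111 CPM in Tnc-/- (7 of 10 tested genes higher, median 1.37, Alas2 listed at 0). Neutrophil markers summed to 2934 to 6174 CPM in wild type and 6839 to 11596 CPM in Tnc-/- (7 of 10 higher, median 1.07). With wild-type library 1 alone 2 erythroid genes, Ank1 and Sptb, and 0 neutrophil genes passed, and with the covariate 0 of either list did (edgeR). The erythroid median was 0.81 and 0.57 in these fits, and the neutrophil median 0.53 and 0.23. Marrow contains adipocytes, and the part of marrow content in the levels of the 10 genes was not tested. Skin markers were low, at 14.4 to 64.7 CPM summed over 10 epidermal genes (2 of 4 tested lower, median -0.22; Krt15 listed at 0) and 3.30 to 23.5 CPM over 6 mammary and sebaceous genes (2 of 3 tested lower, median -1.62; Csn2 and Csn3 listed at 0). In both alternative fits 0 genes of these skin lists passed (edgeR), and the epidermal median turned to 0.20 with wild-type library 1 alone and 0.83 with the covariate, while that of the mammary and sebaceous genes was -1.09 and -0.94. Of the tendon markers 1 of 9 tested genes passed, lower in Tnc-/-, with a list median of 0.045. That call was lost in both alternative fits, where the tendon median was -0.25 with wild-type library 1 alone and -0.45 with the covariate.

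**Figure D5:**
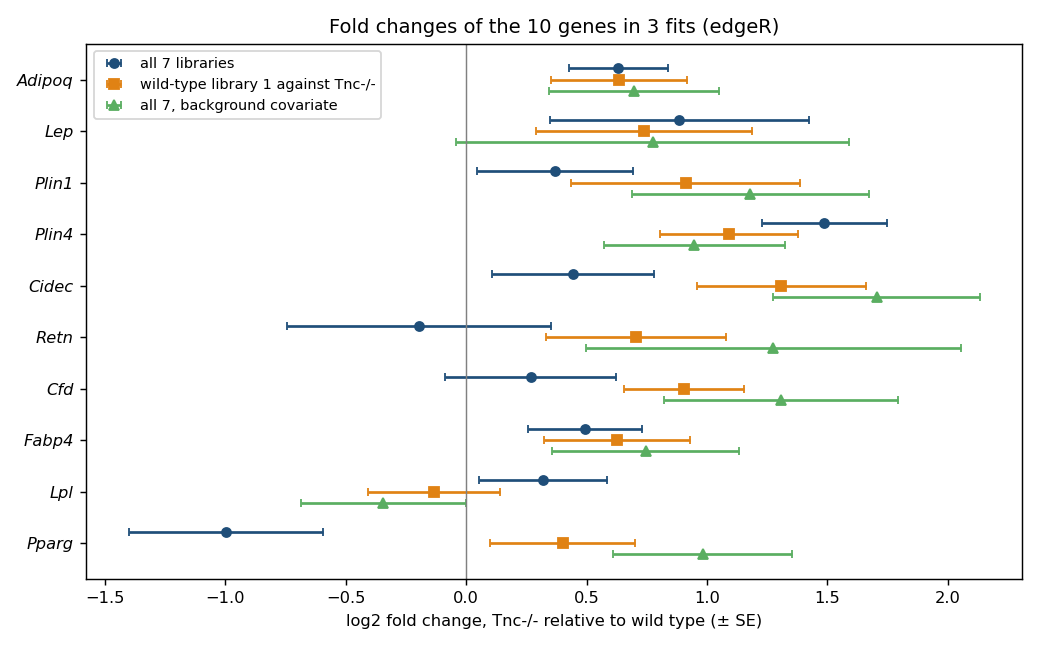
Log2 fold change of the 10 genes, Tnc-/- relative to wild type, with its SE, in 3 edgeR fits: all 7 libraries (circles), wild-type library 1 alone as wild type (squares) and all libraries with the background covariate (triangles). Adipoq stays near 0.63 to 0.70 in all 3, Plin4 lies between 0.95 and 1.49, and Pparg moves from -0.996 to 0.98.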

How the data were processed

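The authors deposited raw counts of reads by gene, each library in a file of its own. The submitters' processing notes name FastQC 0.11.9, HISAT2 2.2.1, HTSeq 2.0.2 and DESeq2 1.38.3 and the builds GRCm39 and mm39; annotation and strand setting are not given in the sources used here. Per the labels' protocols, poly(A) RNA was captured. The Tnc-/- files also held 5 rows that name no gene, with 30.1 to 32.7% of their reads, which were left out; the wild-type files held none.

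Counts of the 56854 identifiers in all files were compared by edgeR 4.0.16 (R 4.3.3, default filterByExpr, TMM, robust quasi-likelihood F test, genotype as the only term) and adjusted by Benjamini-Hochberg. The SE was taken as the log2 fold change over the root of its F. All 10 genes passed the filter. The fit was tested on simulated data.

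Named are the 10 genes, the members of each adipocyte list that passed, and the 8 genes closest in profile; other genes named are markers chosen after their values were seen. The 10 genes, the lists and the tests were chosen with earlier results of these data known. Alternatives were DESeq2 1.42.0, limma 3.58.1 voom, other scalings and filters, each library left out, a replicate block, the background covariate (log2 summed CPM of 2010 receptor genes), genes spanning at most 30 kb and, added after the data were seen, wild-type library 1 alone.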

Additional observations from a re-analysis of the deposited data

Results flagged for a closer look

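Among 28 values tested over the 4 Tnc-/- libraries, those of the 10 genes, of their sum and of the lists, 1 had a library far from the others, and about 1 in 20 does so by chance. The summed CPM of the preadipocyte and mesenchymal progenitor list was 1081 in Tnc-/- library 2, against 1250.4, 1267 and 1240.1 in libraries 1, 3 and 4. Library 2 was separated from its nearest neighbour by 0.856 of the range, above Dixon's critical value for 4 samples. Tnc-/- library 2 had the highest summed level of the 10 fat genes, 1765 CPM. None of the 10 genes, taken singly, had a library that stood apart in this way within Tnc-/-.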

How the results depend on the processing

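Of the 10 genes, 2 passed with all libraries. Plin4 alone passed with DESeq2 under Bonferroni, limma voom, upper-quartile scaling, library totals, size factors from DESeq2, at least 10 counts in every library and genes spanning at most 30 kb (1 gene each), and 0 passed with the background covariate or wild-type library 1 alone (edgeR; 5 and 4 genes had an unadjusted p under 0.05, against 18.5% and 24.6% of all genes). Leaving out each library gave 1 to 4 genes. The 4 came without wild-type library 1 (Adipoq, Plin4 and Lpl higher, Pparg lower), where 14113 of all 21989 genes tested passed. Genes called over the whole table numbered 5159, and 9423 with DESeq2, 1890 with Bonferroni adjustment, 973 with voom, 399 with the covariate, 825 with wild-type library 1 alone, 1995 up to 30 kb and 2229 to 14113 with a library left out. The samples share only a replicate number (correlations of deviations -0.0053, 0.10 and -0.0055 for numbers 1 to 3); the replicate block, in which Tnc-/- library 4 has no partner and does not bear on the contrast, gave 1932 genes and 2 of the 10, Adipoq and Plin4. Library totals moved the median of all genes to -0.24 and the split from 1830 higher and 3329 lower to 951 and 4541; voom gave 707 and 266.

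Signs turned for 3 genes. Retn was 0.16 with voom, -0.55 to 0.86 with a library left out (0.86 without wild-type library 2), 0.71 with wild-type library 1 alone, 0.32 with the replicate block and 1.28 with the covariate. Lpl was -0.13 and -0.34, and Pparg 0.40 and 0.98, with wild-type library 1 alone and with the covariate; the cause was not tested. The other 7 genes kept their direction in every alternative that gave a value. Without Lpl, the highest gene, the summed level was 648 CPM in wild type and 915 CPM in Tnc-/-. With 3 wild-type libraries of which 2 stand apart, and counts of 20 to 129 for Lep, small differences could not be resolved.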
